A study of Mus musculus with 6 samples.

Results

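The 133 barcodes described here are those that carried T lymphocyte and cytotoxic genes in a preparation of mouse small-intestinal crypts, and they were selected on their own counts: of 4890 barcodes that passed a minimum of 300 genes and a ceiling of 25% mitochondrial RNA, they are the ones with a UMI (a counted RNA molecule) on 3 or more of Cd3e, Cd3g, Cd3d, Trbc2, Cd7, Nkg7, Gzma, Gzmb and Ccl5. They make up 2.72% of the kept barcodes, and the other 4757 are mostly epithelial. The method was Drop-seq, in which single cells are captured in droplets and the 3′ ends of their RNA are read. Knockout mice lacked the prostaglandin receptor gene Ptger4 in the epithelium and flox mice carried the floxed gene. All were C57BL6 and 10 weeks old, and their crypts, freshly taken with EDTA, were made into single cells with trypsin. Each genotype gave 3 collections from 2 biological replicates, and the title codes were read as placing collections 1 and 2 in replicate 1 and collection 3 in replicate 2. Nothing in the labels names the Cre driver or says whether a replicate is 1 animal or a pool. A knockout confined to the epithelium leaves the gene in lymphocytes, and a 3′ tag of Ptger4 may lie outside the deleted part, so its counts do not check the genotype.

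Intraepithelial lymphocytes are T cells that live between the epithelial cells of the gut. Many carry the CD8 coreceptor as a pair of alpha chains, without the beta chain of conventional killer T cells, and many use a gamma delta T cell receptor in place of the alpha beta one. They store granzymes, proteases that enter target cells, and are held in the epithelium by the integrin CD103, which binds E-cadherin. EP4, the product of Ptger4, is a prostaglandin E2 receptor that raises cAMP, and the comparison asks how cells of the crypt preparation differ when the epithelium lacks it.

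Tables of the 6 collections held 1765 to 2426 barcodes in knockout and 1443 to 2934 in flox, with 1605533 to 2646093 UMIs in knockout and 1228337 to 3146909 in flox. Values by collection are listed below in the order 1, 2, 3. Xist, the RNA of the inactive X chromosome, had 1, 12 and 1880 UMIs in the knockout tables, against 1, 0 and 1674 in the flox tables, so replicate 2 of each genotype stood apart from replicate 1 in sex. The libraries also fell into 2 sets by shared cell barcodes. Knockout 1, flox 1 and flox 2 shared 19 to 26 kept barcodes in each pair, and knockout 2, knockout 3 and flox 3 shared 8 to 17. No kept barcode was common to libraries of different sets.

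A small number of deep barcodes stood apart from the rest and carried most of the RNA. Of the 133 barcodes, 9 had over 3000 UMIs (3 from knockout, 6 from flox), and these held 59.3% of all UMIs of the selected barcodes. Their depth ran from 3794 to 72229 UMIs with a median of 14341, while the other 124 had 404 to 2659 with a median of 825.5. The 9 selecting genes supplied 0.00692% to 0.290% of the UMIs of the deep barcodes (median 0.0401%). In the other 124 they supplied 0.331% to 16.6% (median 4.71%), so the lowest of these lay just above the highest deep barcode. All 9 had a UMI of Epcam, an epithelial adhesion gene, and 2 of 9 had one of Ptprc, the leukocyte antigen CD45. Among the other 124, 15 had Epcam (12.1%) and 85 had Ptprc (68.5%). For 8 of the 9, the same barcode was also listed in both other libraries of its set. Its largest count there ran from 3132 to 104905 UMIs and exceeded that of the selected barcode in 2 of the 8. Of the other 124 barcodes, 2 recurred in another library. Levels below are therefore given over the 124 barcodes with at most 3000 UMIs, a limit set after the values were seen. Shares are over all 133 unless stated, and the fit across genes between genotypes is given both ways.

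**Figure D1:**
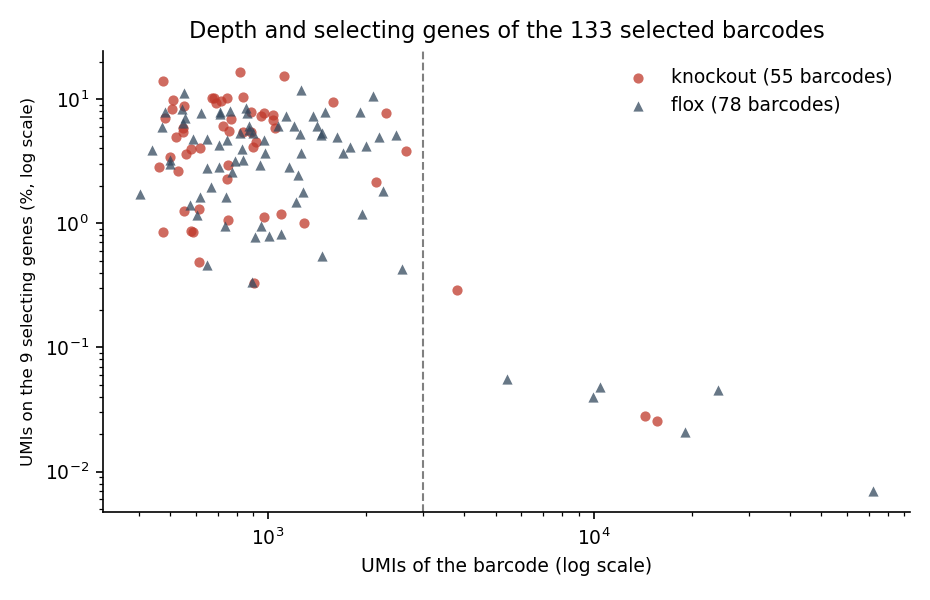
Each point is 1 selected barcode, with its UMIs on the horizontal log axis and the percent of them on the 9 selecting genes on the vertical log axis (circles, knockout, 55 barcodes; triangles, flox, 78 barcodes). The 9 barcodes right of the dashed line at 3000 UMIs all lie at or below 0.290%.

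Barcodes just inside the threshold differed from those just outside it. The 15 barcodes with exactly 3 of the 9 genes had a median of 754 UMIs, 9 with Ptprc, 5 with the T cell receptor alpha constant gene Trac and 6 with Epcam. The 33 barcodes with exactly 2 had a median of 4433 UMIs, 10 with Ptprc, 0 with Trac and 24 with Epcam. At the other end, 12 barcodes had all 9 genes.

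The label of T and NK cells was checked against genes that the selection did not use. Trac was in 43 of the 133 barcodes (32.3%), against 0.0841% of the other kept barcodes, and a T cell receptor gamma constant gene was in 55. Lck, the kinase that starts T cell receptor signalling, was in 32.3%, against 0.610% of the others. Counting the selecting genes too, which is a description, 130 had a UMI of a CD3 gene, Trac or a T cell receptor beta constant gene. Of the genes listed as markers of natural killer cells, some were nearly missing and others were not. Klrb1c, which encodes NK1.1, was found in 1 barcode, Ncr1, which encodes NKp46, in 1 and Eomes, a transcription factor of NK cells, in 0 of 133, which allows a share of up to 2.26%. The adaptor genes Fcer1g and Tyrobp, also on that list, went the other way. Fcer1g was in 17.3% of the 133. Tyrobp was in 0 of 28, 7 of 42 and 5 of 54 barcodes of the CD8 subsets described below. Klrd1, which encodes a receptor chain of NK cells and some T cells, was in 26.3%. The T cell genes were thus present and the NK genes mixed, and the barcodes are called the selected barcodes from here on. Where in the tissue they sat was not measured.

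The selected barcodes were 2.39%, 1.99% and 2.34% of kept barcodes in knockout (18 of 754, 14 of 703 and 23 of 981), against 3.23%, 5.92% and 1.73% in flox (34 of 1053, 28 of 473 and 16 of 926). The knockout collections lie close together, and the flox collections lie on both sides of them. By biological replicate the share was 2.27% ± 0.105 in knockout and 2.90% ± 1.65 in flox (SD, n = 2 each, biological replicates), a difference of -0.625 percentage points (exact two-sided permutation test, p = 1, where 2 against 2 cannot go below 0.333). Without the deep barcodes, the difference by biological replicate was -0.510 points. Over single collections the difference was -1.38 points (exact permutation test, p = 0.4, lowest possible 0.1). Within the first library set it was -2.19 points and within the second 0.440 points, so the sign depended on which libraries were set side by side. The share of flox 2 had an exact Clopper-Pearson 95% interval of 3.97% to 8.44% and that of flox 3 of 0.991% to 2.79%, which covers counting error only. Flox 2 also kept 473 of 2934 barcodes while flox 1 kept 1053 of 1443, and the part of this in the shares was not tested.

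**Figure D2:**
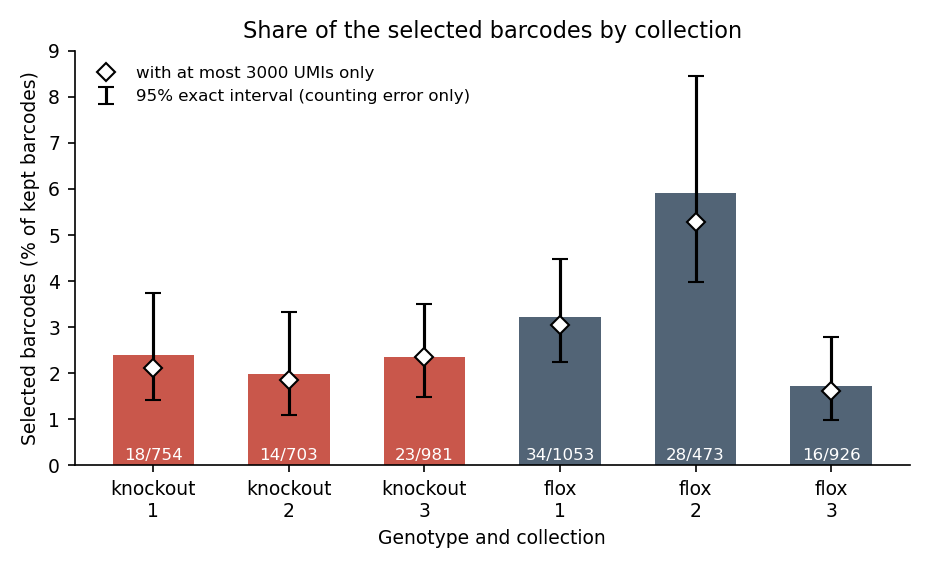
Bars give the selected barcodes as a percent of kept barcodes in each collection (knockout left, flox right), with their number over the number kept; error bars are exact 95% intervals and diamonds leave out barcodes over 3000 UMIs. The 3 knockout bars lie at 1.99% to 2.39%, and the flox bars span 1.73% to 5.92%.

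Genes of the T cell receptor complex differed in how often they were found: all 14 in the tables had a UMI in the 124 barcodes, and 10 were in over 10% of them. Cd3g, Cd3d and Cd3e, which encode the signalling chains CD3 gamma, delta and epsilon, had a UMI in 67.7%, 57.1% and 47.4% of the 133. Cd3g was in 0.231% of the other kept barcodes, which had a median of 1290 UMIs, against 854 in the selected ones. As selecting genes they are given as a description. Cd3g stood at 1388, 2403 and 1498 CPM (UMIs summed over the barcodes of a collection and scaled to a total of 1000000) in knockout, against 1505, 1655 and 2306 CPM in flox, so the genotypes overlapped. Cd3g and Cd3d lie next to each other on chromosome 9 in opposite directions (44969572 to 44980431 and 44981786 to 44987339, GRCm38), and Gzma and Gzmb, the granzyme genes described next, lie on chromosomes 13 and 14. Their promoters are shown because these genes define the population: 250 bases before to 50 after the gene start, 5′ to 3′ on the gene's strand, from RefSeq on GRCm38.p6. Capitals mark matches, on either strand, to TGTGGT, the core letters bound by RUNX factors, or to AGGAAG, an ETS core. No match of one overlapped a match of the other.
Gzma, chr13:113100932-113101231, minus strand: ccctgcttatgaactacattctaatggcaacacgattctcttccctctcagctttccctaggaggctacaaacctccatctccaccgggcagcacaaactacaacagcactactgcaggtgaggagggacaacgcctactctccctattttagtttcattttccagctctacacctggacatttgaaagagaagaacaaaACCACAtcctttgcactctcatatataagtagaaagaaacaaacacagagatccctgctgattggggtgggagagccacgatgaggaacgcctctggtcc
Gzmb, chr14:56262285-56262584, minus strand: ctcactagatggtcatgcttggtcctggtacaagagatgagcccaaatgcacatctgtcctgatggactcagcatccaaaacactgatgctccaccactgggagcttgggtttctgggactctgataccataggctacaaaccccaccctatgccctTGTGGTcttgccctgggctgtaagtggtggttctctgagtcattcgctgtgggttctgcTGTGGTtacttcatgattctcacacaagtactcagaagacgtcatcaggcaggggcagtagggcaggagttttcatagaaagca
Cd3g, chr9:44980382-44980681, minus strand: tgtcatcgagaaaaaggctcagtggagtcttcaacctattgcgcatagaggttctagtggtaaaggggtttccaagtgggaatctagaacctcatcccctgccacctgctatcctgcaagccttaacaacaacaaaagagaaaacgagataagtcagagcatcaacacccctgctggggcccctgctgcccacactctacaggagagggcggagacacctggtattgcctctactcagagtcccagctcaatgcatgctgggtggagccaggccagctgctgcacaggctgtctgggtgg
Cd3d, chr9:44981536-44981835, plus strand: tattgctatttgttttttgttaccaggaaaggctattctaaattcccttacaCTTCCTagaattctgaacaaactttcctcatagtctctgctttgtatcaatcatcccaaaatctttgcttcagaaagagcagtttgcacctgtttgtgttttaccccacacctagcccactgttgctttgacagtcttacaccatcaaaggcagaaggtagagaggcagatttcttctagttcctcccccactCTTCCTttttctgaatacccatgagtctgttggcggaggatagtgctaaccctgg
The RUNX letters occurred 1 time in the Gzma window, 2 times in that of Gzmb and 0 times in those of Cd3g and Cd3d, where 16.8% of 32851 promoters of this length hold them. The ETS letters occurred 2 times in the Cd3d window and 0 times in the other 3, where 35.4% of promoters hold them. These are matches of letters, not measured sites.

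The granzyme genes Gzma and Gzmb were found in most of the selected barcodes and perforin in few. Gzma and Gzmb are selecting genes and perforin is not. Their shares are therefore a description and are not comparable with that of perforin. Gzma had a UMI in 114 of 133 barcodes (85.7%) and Gzmb, which encodes the caspase-cleaving granzyme B, in 79 (59.4%). Every one of the 79 Gzmb barcodes also had Gzma: Gzmb without Gzma was seen in 0 of 133 barcodes, which allows a share of up to 2.26%, Gzma alone in 35 and neither in 19. Gzma stood at 24689.6, 24635 and 15137 CPM in knockout, against 17038, 14789 and 11113 CPM in flox. The lowest knockout collection lies within the flox range. In single barcodes Gzma ranged from 0 to 7.34% of all UMIs, with a median of 1.55%. Gzmb stood at 1461, 3348 and 2567 CPM in knockout and 2529, 1972 and 3215 CPM in flox, again overlapping.

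Among granule genes that the selection did not use, Srgn, the proteoglycan that packs granzymes, was in 110 barcodes (82.7%), Ctsw, a protease of killer cells, in 30.8% and Cst7, a cathepsin inhibitor, in 18.8%. Prf1, which encodes the pore former perforin, was in 4 of 133 (3.01%) and Gzmk in 8.27%. Srgn was in 4.86% of the other kept barcodes. Of the 16 granule genes listed, 15 had a UMI in the 124 barcodes, and 11 were in over 10% of them. Gzmm was at 0 in the 124.

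The chemokine Ccl5, which attracts T cells, had a UMI in 88.0% of the selected barcodes and stood at 23813, 42918.5 and 13853 CPM in knockout, against 20349, 21127.5 and 9925 CPM in flox. Knockout 2 is the highest, and knockout 3 lies between the flox values. Gzma and Ccl5 occurred together in 109 barcodes (82.0%). Both are selecting genes, so these shares are shaped by the rule and are a description. Interferon gamma (Ifng), a macrophage-activating cytokine, was in 35 barcodes. Of these in the 124, 3, 4 and 4 were in knockout and 16, 4 and 3 in flox, so flox 1 alone held 16 of 34. Ccl4, an inflammatory chemokine, was in 25.6%. Il17a, a cytokine of mucosal defence, came from 1 barcode of flox 1 with 22 UMIs, and 24 of the 28 Areg UMIs (an epidermal growth factor ligand) came from 1 barcode of the same collection.

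Measured against the other kept barcodes, the 15 genes outside the selection with the largest fold were Cd8b1, Fcer1g, Klrd1, Trac, Ms4a4b, Cst7, Ifng, Lcp2, Trgv2, Cd8a, Cd96, Tcrg-C1, Spn, Trat1 and Actn2. Trac had 492 CPM in the 124 selected barcodes and 0.449 CPM in the others, from 5 UMIs. Cd8a had 975 CPM against 1.26 CPM, a 776-fold ratio, and Klrd1, which encodes the receptor chain CD94, had 533 CPM against 0.449 CPM. Since the same counts chose the barcodes, these ratios carry no test. Cd8b1, Fcer1g and Lcp2 rest on 3 UMIs each in the others, and Cst7 and Spn on 2.

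Of 20 genes of homing and tissue residence in the tables, 18 had a UMI in the 124 barcodes and 11 were in over 10% of them, while Ahr and Ms4a4c were at 0. Itgb7, the beta 7 integrin chain, was in 39.8% of the 133 and in 0.736% of the other kept barcodes, Cd69, a retention marker, in 33.8% and 1.32%, and Itgae, which encodes the alpha chain of CD103, in 28.6% and 0.357%. Amica1, an adhesion receptor, was in 34.6%, but also in 12.9% of the others. Ccr9, the small-intestinal homing receptor, was in 10.5%. Genes of naive, recirculating T cells were less frequent: of 9 listed, Il7r, the interleukin 7 receptor, was in 13.5% and each of the rest in under 10%. Ccr7 and S1pr1, which steer exit into lymph and blood, were at 0 in the 124 (a share of up to 2.42%), and Klf2, a factor that induces S1pr1, was in 6.02% of the 133. The naive list summed to 219, 85.8 and 214 CPM in knockout, against 451.5, 775 and 419 CPM in flox, without overlap, and this sum was not tested. The knockout sums rest on few UMIs, since these collections had 13690, 11650 and 18696 UMIs in all. The coreceptor and cytokine receptor lists were also lower in knockout without overlap. The T cell receptor complex list, which holds the selecting genes Cd3e, Cd3g, Cd3d and Trbc2, was higher without overlap. The sums of the remaining lists overlapped. Il7r is in both the naive and the cytokine receptor list, so these 2 are not separate observations. None of these sums was tested. With 3 against 3 collections and many lists, some are likely to separate, and the share of all genes that do is not given here. Foxp3, the regulatory T cell factor, was in 1 barcode.

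Of the remaining lists, 26 of 26 T cell signalling genes had a UMI in the 124, and 22 were in over 10% of barcodes. Rgs1, a brake on chemokine receptor signalling, was in 61.7%, Fyb, an adaptor, in 63.2% and Lck, the kinase that starts receptor signalling, in 32.3%. Among transcription factors, Id2 was in 37.6%, Ets1 in 31.6%, Bcl11b in 25.6% (15.2% of the others) and Runx3, which silences Cd4, in 15.8%, while Zbtb16 was at 0 in the 124. Ctla4, an inhibitory receptor, was in 24.8%, and Pdcd1 was at 0 in the 124. B2m, the light chain of MHC class I, was in 96.2%.

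For prostaglandin signalling, Ptger4 had 4 UMIs in the 124 barcodes, in 2 barcodes of knockout 1 and 2 of flox 2, or 33.3 CPM against 16.8 CPM in the other kept barcodes. Ptger2, Ptgs1 and Ptgs2 were at 0. Among genes that cAMP is known to induce, Nr4a2 was in 61.7% of the 133, Nr4a3 in 51.1% and Crem in 27.1%, against 10.7%, 1.77% and 1.93% of the other kept barcodes. Nr4a2 stood at 2264, 1202 and 1605 CPM in knockout, against 1595, 1866 and 1118 CPM in flox, with overlap. The immediate early gene Junb, which dissociation can also raise, was in 72.9%.

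RNA of other cells was present in the selected barcodes as well. Defa24, a Paneth cell defensin, was in 69.4% of the 124 at 1759 CPM, close to the 68.1% and 2020 CPM of the other kept barcodes. Epithelial genes were lower: the 10 listed summed to 511 to 4807 CPM in knockout collections and 361 to 1162 CPM in flox collections, against 13662 CPM in the others, and Epcam stood at 158 CPM against 2048 CPM. The enterocyte list summed to 963 to 15794 CPM in knockout and 843 to 1268 CPM in flox, and the top value is that of knockout 2, in which 1 barcode held most of the Reg3b. The highest genes of these lists were Lgals4, Krt8 and Epcam and Reg3b, Reg3g and Fabp2. Goblet genes, led by Tff3, Zg16 and Spink4, summed to 1059 CPM against 17281 CPM in the others. Of the B or plasma cell genes, Cd74, Ighm and Igha were the highest, and Cd79a, Igkc, Iglc2 and Mzb1 were at 0. Of the myeloid genes, Cst3, Itgax and Fcgr3 were the highest, and Lyz2, C1qb, Csf1r, Cd14 and Cx3cr1 were at 0. The mast cell proteases Mcpt1 and Mcpt2, the innate lymphoid genes Il17rb, Il5 and Il13 and the genes Hba-a1, Hba-a2, Hbb-bs, Hbb-bt, Col1a1 and Col3a1 were likewise at 0 in the 124.

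**Figure D3:**
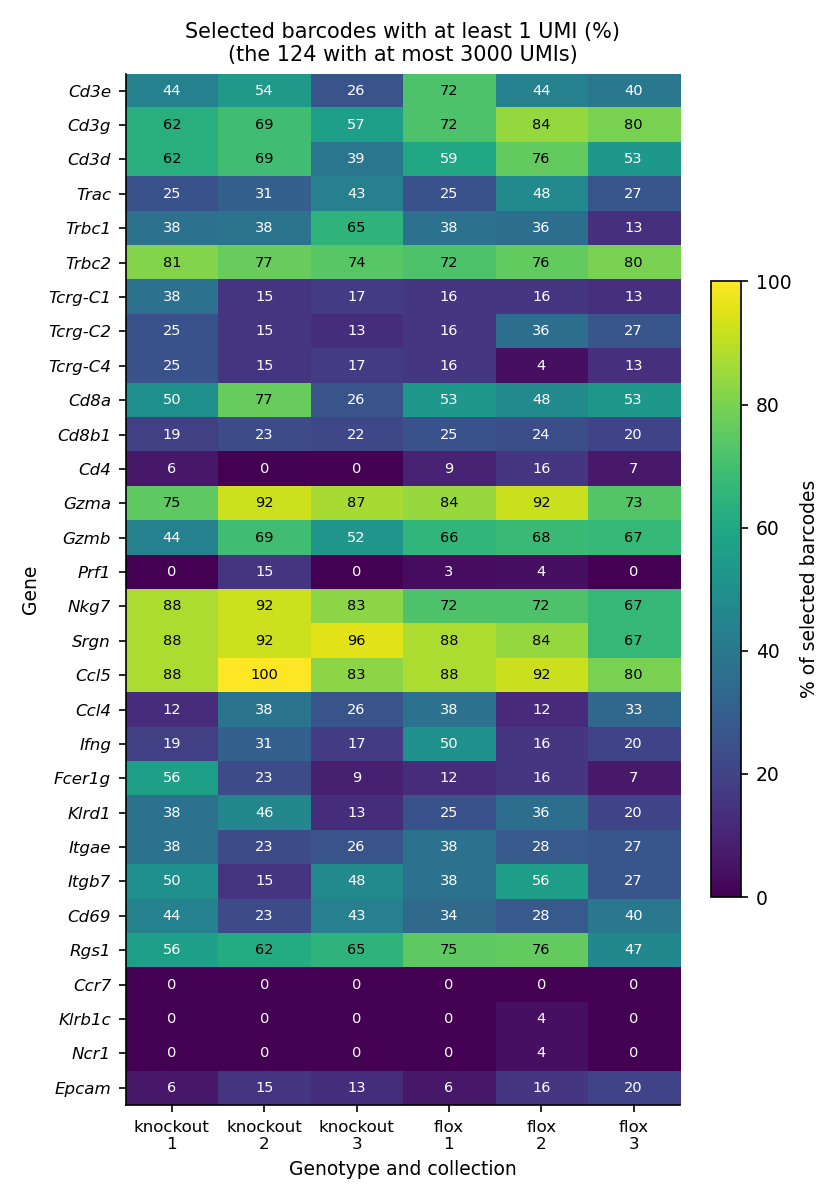
Each cell gives the percent of the 124 selected barcodes with at most 3000 UMIs that had at least 1 UMI of the gene (vertical axis) in each collection (horizontal axis, knockout left, flox right), in colour and number. The selecting genes Gzma and Ccl5 stand at 84.7% and 87.9% of the 124 together, and Ccr7 is at 0.

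By coreceptor, 28 of 133 barcodes had a UMI of Cd8b1, which encodes the CD8 beta chain (21.1%), 45 had Cd8a without Cd8b1 (33.8%), 60 had neither (45.1%) and 9 had Cd4, 1 of them together with a CD8 gene. Of the 28, 19 also had Cd8a. At these depths a barcode without a UMI may still come from a cell with the RNA: the barcodes with neither gene had a median of 722.5 UMIs, against 943.5 for those with Cd8b1. Cd8a stood at 1388, 1288 and 642 CPM in knockout, against 873, 1092 and 769 CPM in flox. Cd8b1 stood at 438, 343 and 695 CPM in knockout and 482, 317 and 349 CPM in flox. Both overlapped between genotypes.

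By receptor chain, Trac was found in 43 barcodes (32.3%) and a gamma constant gene (Tcrg-C1, Tcrg-C2, Tcrg-C3 or Tcrg-C4) in 55 (41.4%). Both together were in 20, Trac alone in 23, a gamma gene alone in 35 and neither in 55. Alpha beta T cells can transcribe gamma genes, and Tcrg-C1, Tcrg-C2 and Tcrg-C3 are near copies of each other, as are Trbc1 and Trbc2, so the split between such copies is uncertain. The delta constant gene was not analysed here. Trbc1 was in 15 of 23 barcodes of knockout 3 and in 2 of 15 of flox 3, while the other 4 collections lay between 36.0% and 38.5%.

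The Cd8b1 barcodes and the Cd8a barcodes without Cd8b1 differed in several genes that did not define them. Trac was in 14 of 28 Cd8b1 barcodes and in 12 of 45 Cd8a barcodes without Cd8b1, but among barcodes with at most 3000 UMIs it was found more often with Cd8b1 in 2 of 4 biological replicates and more often without it in the other 2. A gamma constant gene was in 12 of 28 and 24 of 45. Fcer1g, a signalling adaptor of innate receptors, was in 0 of 28 Cd8b1 barcodes, which allows a share of up to 10.7%, and in 17 of 42 Cd8a barcodes without Cd8b1 among those with at most 3000 UMIs. By biological replicate, the Cd8b1 barcodes held Fcer1g in 0 of 6 and 0 of 5 in knockout and 0 of 14 and 0 of 3 in flox. The Cd8a barcodes without Cd8b1 held it in 9 of 15 and 1 of 2 in knockout and 7 of 20 and 0 of 5 in flox. The direction was the same in 3 of 4 biological replicates, and in the remaining one Fcer1g was at 0 in both subsets. Of all 23 Fcer1g barcodes, 18 had a gamma constant UMI.

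Other genes of natural killer type receptors were also found more often without Cd8b1, with no test. Klrd1 was in 6 of 28 Cd8b1 barcodes and 19 of 42 Cd8a barcodes without Cd8b1, Hcst, which encodes the adaptor DAP10, in 4 and 18, Cd244, the receptor 2B4, in 1 and 10, and Tyrobp, the adaptor DAP12, in 0 and 7. Cd244 was higher without Cd8b1 in 4 of 4 biological replicates, Klrd1 in 3 and Hcst and Tyrobp in 2. Gzma was in 89.3% of Cd8b1 barcodes and 95.2% of Cd8a barcodes without Cd8b1, and its level was 14832 CPM and 25299 CPM. Nkg7, a granule membrane protein, was in 75.0% and 92.9%. Gzma and Nkg7 are selecting genes, and each was found more often without Cd8b1 in 3 of 4 biological replicates. In the opposite order, Itgb7 was in 18 of 28 Cd8b1 barcodes and 15 of 42 Cd8a barcodes without Cd8b1, higher with Cd8b1 in 4 of 4 replicates, and Ms4a4b, a membrane protein of T cells, was in 8 and 4, higher with Cd8b1 in 3 of 4. The subsets had 943.5 and 846 median UMIs and 0.643% and 0.632% of other-cell RNA. These differences have no test across genes, since a replicate of a subset held as few as 2 barcodes.

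**Figure D4:**
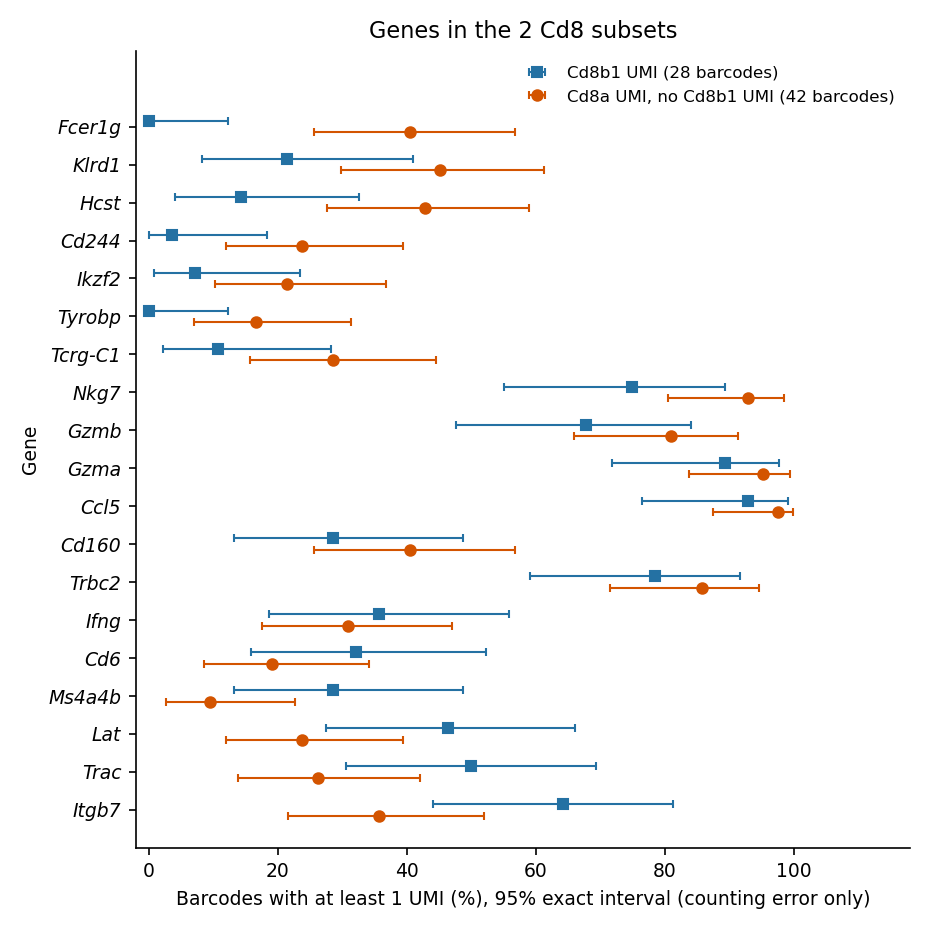
Points give the percent of barcodes with a UMI of each gene (vertical axis) among 28 Cd8b1 barcodes (squares) and 42 Cd8a barcodes without Cd8b1 (circles), with exact 95% intervals that cover counting error only. Fcer1g and Tyrobp are at 0 in the Cd8b1 barcodes, and Itgb7 is found more often there. Trac stands higher there over all barcodes but in 2 of 4 biological replicates.

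Shares of the CD8 subsets overlapped between the genotypes. Cd8a without Cd8b1 made up 44.4%, 57.1% and 8.70% of selected barcodes in knockout, against 35.3%, 35.7% and 31.2% in flox. The flox collections lie close together, while the knockout collections lie above them in replicate 1 and below them in replicate 2. After thinning each of the 123 barcodes with enough depth to 500 UMIs (50 knockout, 73 flox, leaving out 5 from each genotype), Cd8a was in 31.8% ± 11.1 in knockout and 31.1% ± 0.848 in flox, and Cd8b1 in 16.4% ± 4.78 in knockout and 13.3% ± 1.20 in flox (SD over the 2 biological replicates of a genotype). Unthinned, the Cd8a shares were 42.7% ± 23.5 in knockout and 50% in both flox replicates. Trac was in 25.4% ± 8.35 in knockout and 16.5% ± 3.88 in flox, Trbc1 in 39.7% ± 19.3 in knockout and 16.4% ± 12.7 in flox, and Cd4 in 1.31% ± 1.85 in knockout and 5.89% ± 1.17 in flox. Gzmb, a selecting gene and so given without a test, was in 42.3% ± 0.741 in knockout and 54.4% ± 5.02 in flox. Gamma constant genes were in 32.4% ± 7.11 in knockout and 26.5% ± 5.29 in flox. By collection, the thinned Cd4 shares were 4.52%, 0% and 0% in knockout, against 4.66%, 9.18% and 5.06% in flox, without overlap. Few barcodes carry them, since 9 of the 133 had Cd4. In exact permutation tests over these 2 against 2 replicates, p was 0.333, the lowest possible, for Trac, Trbc1 and Cd4, 0.667 for Cd8b1 and gamma constant genes and 1 for Cd8a. The lowest p means that the replicates of the 2 genotypes did not overlap. Unthinned, p for Trac was 0.667. Without the deep barcodes, the thinned Cd8a shares were 33.6% ± 13.8 in knockout and 33.6% ± 0.364 in flox. In the same permutation test p was again 0.333 for Trac, Trbc1 and Cd4.

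Across genes, none passed the test between knockout and flox over all 133 selected barcodes. Counts were summed per biological replicate, and 0 of 852 genes tested passed an adjusted p of 0.05 in edgeR's quasi-likelihood test (0.0% called, 12 genes at an unadjusted p under 0.05, and 0 called by DESeq2). The values moved with the deep barcodes, which supplied 43.4% of the UMIs of selected barcodes in knockout and 65.04% in flox. All 9 selecting genes had positive log2 fold changes with all barcodes (median 0.92, against -0.05 for all genes tested). All 9 tested genes of the epithelial list had negative ones (median -1.21), as had the 6 enterocyte genes (-0.58) and 6 Paneth genes (-0.12). The 4 goblet genes tested went the other way, all positive (median 1.55). Other-cell RNA was 3.77% of UMIs in knockout and 3.38% in flox. Without the 9 deep barcodes, 6 of the 9 selecting genes were positive and 3 negative (median 0.16, against 0.00 for the 379 genes tested). No gene of the epithelial or goblet list then had enough counts to be tested.

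The barcodes were chosen on counts of the selecting genes, so the values of these genes between the genotypes are a description and carry no test. Gzma had a log2 fold change of 1.27 (SE 0.35) with all barcodes and 0.53 (SE 0.41) without the deep ones. Ccl5 had 1.26 (SE 0.37) and 0.57 (SE 0.46). Gzmb had 0.65 (SE 0.61) with all barcodes and -0.15 (SE 0.31) without the deep ones, and Cd3g 0.54 (SE 0.57) and -0.17 (SE 0.34). The signs of Gzmb, Cd3g and Cd3e thus depended on 9 barcodes. The remaining selecting genes, Cd3d, Trbc2, Cd7 and Nkg7, had values of 0.83 to 1.16 with all barcodes and of 0.12 to 0.43 without the deep ones. Among genes outside the selection with all barcodes, Itgae had 1.63 (SE 0.55), Srgn 1.48 (SE 0.60) and Rgs1 1.42 (SE 0.57), and Elf1, an ETS factor, 1.33 (SE 0.48), each with an adjusted p of 0.996 in edgeR. The lowest were Areg (-4.20, SE 1.37), Mgat4a (-2.43), Edn1 (-2.16), Sfn (-2.02), Dsg2 (-1.87) and Defa21 (-1.44), and none of these 6 had enough counts to be tested without the deep barcodes.

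**Figure D5:**
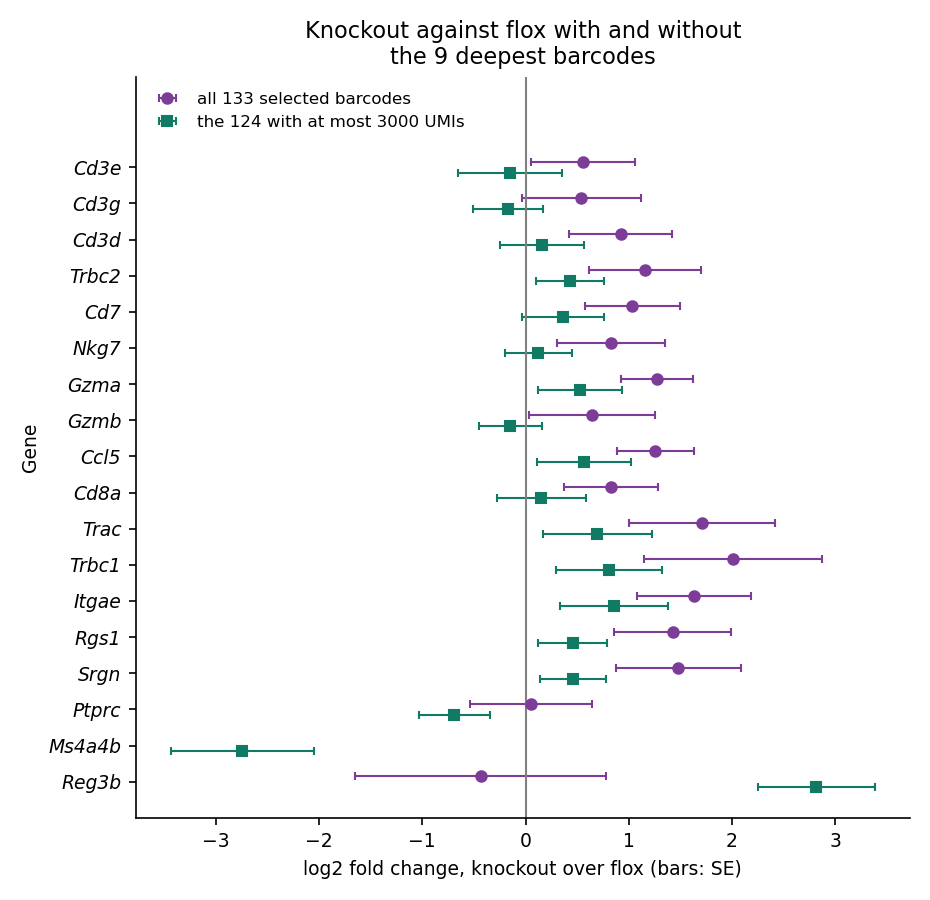
Points give the edgeR log2 fold change of knockout over flox for each gene (vertical axis) over all 133 selected barcodes (circles) and over the 124 with at most 3000 UMIs (squares); bars are SE, and Ms4a4b had too few counts to be tested over all 133. Every circle of the 9 selecting genes lies right of the square of the same gene.

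The lists of T cell function, without the deep barcodes, held no called gene, where 1 of all 379 genes tested was called (0.264%), so a count of 0 in lists of this size is near that share. The receptor complex and granule lists hold selecting genes. Of 6 tested T cell receptor complex genes 4 were positive and 2 negative with 0 called (median 0.30), of 6 cytotoxic granule genes 4 and 2 with 0 called (0.19), of 13 signalling genes 7 and 6 with 0 called (0.01), of 5 homing and residence genes 3 and 2 with 0 called (0.27), and of 6 MHC class I and interferon genes 3 and 3 with 0 called. Among the 3 cAMP-responsive genes tested, Nr4a2 had 0.17, Crem 0.09 and Nr4a3 -0.31, and 0 were called. Of the 11 immediate early and heat shock genes, 6 were positive, 5 negative and 0 called (median 0.14). These medians stand beside 0.00 for all 379 genes.

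The 1 gene that passed without the deep barcodes rested on 1 barcode. Reg3b, an antibacterial lectin of enterocytes, had a log2 fold change of 2.81 (SE 0.57, edgeR adjusted p = 0.00718). It stood at 730.5, 10386 and 481 CPM in knockout, against 271, 423 and 559 CPM in flox. Knockout 2 stands far above the others, and 113 of its 121 Reg3b UMIs came from a single barcode, without which it stood at 842 CPM. Leaving out barcodes with over 5% of RNA of other cells as well, Reg3b had 0.62 (edgeR adjusted p = 0.994) and 0 of 361 genes were called. That percent counts Reg3b itself, and the limit took out this single barcode, so the setting is no separate check of Reg3b. With single collections as samples, 0 of 240 were called, and 0 of 261 when either knockout 1 or knockout 2 was left out. Over all barcodes Reg3b had -0.44 (SE 1.22).

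The gene with the next smallest p was Ms4a4b, at -2.74 (SE 0.69, edgeR adjusted p = 0.0676), which did not pass. It stood at 146, 0 and 107 CPM in knockout, against 421, 634 and 839 CPM in flox. The genotypes did not overlap. A gene picked for its small p is likely to separate them, and the share of all tested genes that do is not given here. The knockout values rest on 4 UMIs, and in flox 3, 11 of 12 UMIs came from 1 barcode, without which that collection stood at 85.3 CPM, below knockout 1. It was in 2, 0 and 2 barcodes in knockout and 7, 8 and 2 in flox. Tnfaip3, an inhibitor of NF-kB signalling, had -1.77 (SE 0.63, edgeR adjusted p = 0.999), with 73.0, 85.8 and 267 CPM in knockout and 512, 669 and 489 CPM in flox, again without overlap. In flox 3, 4 of its 7 UMIs came from 1 barcode, without which that collection stood at 244 CPM, below knockout 3. Anp32b had -1.53, Tpr -1.10, Rpl3 -0.73 and Ptprc -0.69, while Hexim1 had 1.04, Cox7c 1.01, Ubl5 0.99, Fth1 0.61 and Rpl36 0.59, all with an edgeR adjusted p of 0.999.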

How the data were processed

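Gene-by-barcode tables were deposited as whole-number counts of UMIs, with no normalization by the authors seen in the values. STAR 2.6 and mm10 are named in the submitters' processing notes. No annotation release, UMI setting, Cre driver or deleted exon is stated in the sources used here. The filter kept 37.1% of 13191 barcodes. Depth per collection is 1228337 to 3146909 counts, and per selected barcode a median of 854. Doublets were neither called nor removed. Gene positions come from GENCODE on GRCm38, in which 17963 of 19178 symbols were found.

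The selecting rule, gene lists and tests were chosen with earlier results of these data known. Counts of selected barcodes were summed per biological replicate and tested with edgeR 4.0.16 (quasi-likelihood, TMM, filterByExpr at a minimum count of 10, Benjamini-Hochberg, threshold 0.05) in R 4.3.3, with DESeq2 1.42.0 as an alternative. The fit was also run on counts simulated with a fixed dispersion, without effects of single barcodes or sex, so its error rate on the real counts is not known. It recovered 26.8% of genes with a true log2 fold change of 1 over all barcodes and 39.7% without the deep ones. At 2 these were 94.7% and 100%, and of unchanged genes 0.584% and 3% were called. The labels do not say whether replicates are separate animals, so p-values measure the spread between these samples, which includes a difference in sex. Shares were compared by two-sided exact permutation tests. Python 3.11.15, numpy 2.4.6, pandas 2.3.3, scipy 1.17.1 and matplotlib 3.10.9 were used. Thinned shares are the expected share of barcodes with a UMI when 500 UMIs are drawn from each. Intervals and limits from a count of 0 (3 counts) cover counting error only. SE values were derived from the quasi-likelihood F statistic. CPM was computed from summed UMIs. Named genes between genotypes are the 9 selecting genes, those that passed (up to 12 per direction, at a mean of at least 50 CPM), otherwise 6 per direction by smallest p at a mean of at least 200 CPM, and up to 4 per list by level. Against the other barcodes they are the 15 with the largest fold among genes in at least 15% of selected barcodes, and for other cell types the 3 highest and those at 0. Further genes, among them Prf1, Foxp3, Klf2, Ptger4 and the subset genes, were chosen after their values were seen. Alternatives changed the normalization, test, filter, rule, barcode limits, block and samples. Promoters come from RefSeq on GRCm38.p6.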

Additional observations from a re-analysis of the deposited data

Results flagged for a closer look

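The share of selected barcodes differed between the genotypes in opposite directions in the biological replicates. In replicate 1, both knockout collections lay below both flox collections, with a difference of -2.38 percentage points (knockout minus flox) between the means of the 2 collections of each genotype, each collection weighted equally. With the barcodes of both collections pooled, as in the shares by biological replicate, replicate 1 stood at 2.20% in knockout and 4.06% in flox. In replicate 2 knockout lay above flox by 0.617 points. Replicate 1 and replicate 2 also differ in Xist and in part in the set of libraries that share barcodes, and whether the direction differs between replicates was not tested.

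Barcodes with Cd8a and without Cd8b1 were more frequent in knockout in replicate 1, by 15.3 percentage points between the means of collections (pooled, 16 of 32 in knockout and 22 of 62 in flox), and less frequent in knockout in replicate 2, with a difference of -22.6 points. Barcodes with neither gene mirrored this, with -11.9 points between the means of collections in replicate 1 (pooled, 10 of 32 in knockout and 26 of 62 in flox) and 19.6 points in replicate 2. Knockout collection 3, with 23 selected barcodes and a median of 750 UMIs, is the 1 library that sets replicate 2 of knockout. These differences were not tested.

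Outside the filter on barcodes, 20 barcodes had 3 or more of the 9 selecting genes, 13 in knockout and 7 in flox. All 20 had under 300 genes (127 to 296) and a median of 338 UMIs, and the selecting genes made up a median of 4.95% of their UMIs.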

How the results depend on the processing

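The share of selected barcodes kept a negative difference in 19 of 21 alternatives. The exceptions were leaving out replicate 1 of flox (0.543 points) and the second library set (0.440 points), and leave-outs ranged from -1.79 to 0.543 points. The count of called genes was 0 under all barcodes and became 1 without a filter on low counts (Areg), 3 with at least 2 of the 9 genes and, in an alternative added later, 9 within the first library set, which sets 1 knockout collection against 2 flox collections of 1 biological replicate. Among alternatives chosen after the data were seen, it was 1 without barcodes over 3000 UMIs and 1 there with the replicate block, while with all barcodes the replicate block gave 0. Leave-outs ranged from 0 to 77 genes. The 77 came without replicate 1 of knockout, and the count was 3 without collection 3 of knockout, with the deep barcodes and without them. Each of these, like the first library set, leaves knockout with 1 sample that is assumed to vary like flox, and the calls were not compared gene by gene. Same-numbered replicates deviated with a correlation of -0.06 over 852 genes with all barcodes and -0.03 over 379 genes without the deep ones. The labels do not pair samples by number, so the main fit had no block. By Xist the numbers do match samples in sex, and the correlation does not decide whether they pair.

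For subset shares, knockout minus flox without thinning was -7.27 points for Cd8a and -0.42 points for Cd8b1. Leave-outs ranged from -3.60 to 8.50 points for Cd8a, from -0.30 to 3.38 for Cd8b1 and from -1.75 to 11.5 for gamma constant genes. Reg3b, at -0.44 with all barcodes, was 2.81 without barcodes over 3000 UMIs and 2.77 there with the block, and in leave-outs of that setting 2.41, 2.91, 3.06 and 3.68 where it was called. Reg3g, at -0.24 with all barcodes, was called there at 2.68 without collection 3 of knockout. The test of Cd8b1 against Cd8a barcodes and its alternatives were not run, because several replicates held under 10 barcodes of a subset. Thus 9 deep barcodes, 4 replicate sums and a median of 854 UMIs limit these results, and the cause of the changes was not tested.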
